A study of Mus musculus with 24 samples.

Results

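The cytochrome P450 genes of families 1 to 3 were taken as every measured gene whose symbol starts with Cyp1, Cyp2 or Cyp3 followed by a subfamily letter and a gene number. Of 21370 named genes on the array, 54 fitted this rule, in 16 subfamilies. Each gene was read from 1 probe, the brightest over all 24 arrays, and 14 of the members had more than 1 probe. Expression was measured on Agilent 1-colour arrays, and the RNA came from the liver, the brain, the heart and a skeletal muscle sample of 6 females. The knockin (KI) mice, labelled RAP1 MUT, were homozygous for Rap1 I312R, a CRISPR/Cas9-made change in the telomere protein RAP1 (gene symbol Terf2ip) at the residue it needs to bind TRF2. The controls were wild-type (WT) littermates, and no mouse received a treatment. KI mice A and B and WT mice D and E were 15 months old, while C (KI) and F (WT) were 14 months old. All 4 tissues came from the same 6 animals, giving 8 groups of 3 arrays in which the mouse is the replicate. The line was backcrossed to C57BL/6N, and 3 females of a genotype limit what can be called.

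Cytochromes P450 are heme enzymes of the endoplasmic reticulum that insert an oxygen atom into their substrates with electrons passed on by the reductase Por. Families 1 to 3 hold the enzymes that oxidise drugs, pollutants and other foreign compounds, and also steroids, bile acids, fatty acids and vitamin D. They are best known from hepatocytes, where the aryl hydrocarbon receptor AHR drives the Cyp1 genes, the receptor CAR (Nr1i3) the Cyp2b genes and the receptor PXR (Nr1i2) the Cyp3a genes, and where many mouse members also differ between the sexes through growth hormone signalling.

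Levels are given throughout on a log2 scale, as the processed signal of the probe relative to the 75th percentile of its array, so that 0 is the 75th percentile of an array and 1 unit is a doubling. They were compared for the same probe across arrays and not between genes. A probe counted as detected where the scanner software marked it as well above background. The labelled tissues carried their own markers: all 9 measured liver markers were detected on all 6 liver arrays, and all 10 brain, heart and skeletal muscle markers on all 6 arrays of their tissue. A few arrays held signal of other tissues. The summed level of the liver markers was 8.59 in the brain of KI mouse C against 5.65 to 7.07 in the other 5 brains, and the summed level of the olfactory mucosa markers was 6.49 there against 5.17 to 5.61. The summed skeletal muscle markers reached 5.02 in the liver of KI mouse C against -0.85 to -0.26 in the other livers. The muscle of KI mouse B had the highest summed mammary epithelium markers of the 6 muscles (5.64 against 3.73 to 4.90). In the heart of KI mouse B the atrial marker Myl7 read 7.44 against -3.26 to 4.27 in the other hearts. The macrophage marker Vsig4 (2.60) and the brown fat marker Ucp1 (-1.36) were also the highest of the 6 hearts there. Not all adipose and macrophage markers followed. Cidea was the lowest of the 6 there (4.27 against 4.60 to 5.10), and Cd5l, at -2.15, lay within the other hearts (-2.72 to -1.25). Arrays of a tissue correlated with r from 0.977 to 0.990 in liver and from 0.941 to 0.992 in brain over all named genes. Terf2ip, the mutated gene, overlapped between genotypes in all 4 tissues, and in liver its KI minus WT difference was -0.33 (adjusted p = 0.515 by limma). An array does not read the substitution, so these levels did not check the genotype labels.

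The promoters of 7 members on which the results turn are shown here for their known or measured pattern. Cyp1a1 and Cyp1a2 are the neighbouring pair on chromosome 9 of which the second was read in all livers and in no heart or muscle array. Cyp2b9, Cyp2b10 and Cyp2b13 are close relatives on chromosome 7, of which only Cyp2b10 was detected on all hearts. Between genotypes in liver only Cyp2b13 had an unadjusted p under 0.05 by limma, and none of them passed after adjustment. Cyp3a11 is the textbook PXR target, and Cyp2j9 was highest in brain. The sequences are the 250 bases before the gene start from RefSeq (build GRCm38.p6, read on the gene's own strand), and 46 of the 54 members had such an entry. Capitals mark TATAAA, the AHR core GCGTG, the HNF4 motif CAAAGTCC and the C/EBP motif TTGCNNAA, each on either strand.
Cyp1a1 (chr9:57697363-57697612, + strand): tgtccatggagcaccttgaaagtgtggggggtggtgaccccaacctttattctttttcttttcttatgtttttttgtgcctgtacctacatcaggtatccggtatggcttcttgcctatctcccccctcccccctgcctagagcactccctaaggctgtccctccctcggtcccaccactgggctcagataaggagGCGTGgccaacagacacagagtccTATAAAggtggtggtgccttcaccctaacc
Cyp1a2 (chr9:57683656-57683905, - strand): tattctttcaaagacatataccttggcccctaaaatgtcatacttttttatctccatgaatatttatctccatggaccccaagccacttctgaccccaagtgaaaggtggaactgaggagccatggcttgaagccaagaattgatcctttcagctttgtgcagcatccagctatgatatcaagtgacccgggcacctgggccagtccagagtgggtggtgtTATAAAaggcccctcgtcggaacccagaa
Cyp2b10 (chr7:25897408-25897657, + strand): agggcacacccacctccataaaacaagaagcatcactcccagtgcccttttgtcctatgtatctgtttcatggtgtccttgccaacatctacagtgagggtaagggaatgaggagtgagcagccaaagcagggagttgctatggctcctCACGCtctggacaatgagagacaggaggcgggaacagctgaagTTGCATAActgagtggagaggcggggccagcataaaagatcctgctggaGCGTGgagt
Cyp2b9 (chr7:26173159-26173408, + strand): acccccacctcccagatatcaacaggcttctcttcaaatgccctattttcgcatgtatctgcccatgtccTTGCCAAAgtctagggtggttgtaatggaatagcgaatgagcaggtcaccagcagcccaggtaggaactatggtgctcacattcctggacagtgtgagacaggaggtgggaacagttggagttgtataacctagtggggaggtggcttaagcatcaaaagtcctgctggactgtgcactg
Cyp2b13 (chr7:26061245-26061494, + strand): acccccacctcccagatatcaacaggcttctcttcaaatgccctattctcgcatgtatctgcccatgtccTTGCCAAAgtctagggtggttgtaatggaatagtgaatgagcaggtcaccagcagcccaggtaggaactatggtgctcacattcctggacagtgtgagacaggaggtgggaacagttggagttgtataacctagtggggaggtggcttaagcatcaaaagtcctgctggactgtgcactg
Cyp3a11 (chr5:145879855-145880104, - strand): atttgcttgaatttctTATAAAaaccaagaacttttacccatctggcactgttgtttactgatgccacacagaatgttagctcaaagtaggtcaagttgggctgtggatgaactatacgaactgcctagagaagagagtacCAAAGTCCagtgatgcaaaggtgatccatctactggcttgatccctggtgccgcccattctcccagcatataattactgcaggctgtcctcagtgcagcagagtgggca
Cyp2j9 (chr4:96591486-96591735, - strand): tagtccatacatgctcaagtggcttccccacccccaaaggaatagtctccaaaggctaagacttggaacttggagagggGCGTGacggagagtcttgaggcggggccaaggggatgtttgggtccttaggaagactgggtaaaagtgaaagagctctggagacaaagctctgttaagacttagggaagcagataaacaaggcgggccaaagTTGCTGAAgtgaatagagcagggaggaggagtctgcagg

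The stretches of Cyp2b9 and Cyp2b13 were identical at 248 of 250 bases (99.2%), whereas Cyp2b10 shared 71.4% of aligned columns with each of them. Cyp1a1 and Cyp1a2 shared 46.8%. In Cyp1a1 a TATAAA began 30 bases before the gene start and a GCGTG 54 bases before it, and in Cyp1a2 a TATAAA began 29 bases before the start and no GCGTG was read. Seen over 300 bases (250 before and 50 after the start), TATAAA stood in 46.9% of the 49 member promoters and in 13.6% of all 32851 promoters of the table. CAAAGTCC stood in 16.3% of member promoters and 1.42% of all, TTGCNNAA in 24.5% and 10.8%, and GCGTG in 18.4% and 32.4%. Of 7 motifs searched on both strands 6 are given, the others being TTANGTAA (D-box; 2.04% and 2.32%) and AGTTCA (nuclear receptor half-site; 6.12% and 14.0%). Neighbouring members are copies of each other, so their promoters are not independent, and a match of letters shows no binding.

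Liver was the tissue in which most members were read. All 6 livers detected 47 of the 54, all 6 brains 24, all hearts 22 and all muscles 16. Every member was detected on at least 1 array, and 14 on all 24: Cyp2c38, Cyp2c70, Cyp2d11, Cyp2d26, Cyp2e1, Cyp2f2, Cyp2j6, Cyp2j8, Cyp2j9, Cyp2r1, Cyp2s1, Cyp2t4, Cyp3a11 and Cyp3a13. At the other end, 12 members were detected on all livers and on no heart or muscle array, among them Cyp1a2. Cyp2b23 and Cyp2j11 were detected on no liver array. Detection outside liver followed the subfamily only in part. All 7 Cyp3a members were detected on all livers and 4 of them on no muscle array, and none of the 5 Cyp2b members was detected on any muscle array. Of the 13 Cyp2c members 11 were detected on all livers and 3 on all hearts. The Cyp2j subfamily, whose enzymes make epoxides of arachidonic acid, was read more widely: 5 of its 6 members were detected on all livers, 4 on all brains, 4 on all hearts and 3 on all muscles. Where a member had further probes these could differ. The other probe of Cyp3a11 was detected on no heart or muscle array, that of Cyp2c38 on no array outside liver, and that of Cyp2r1 on no muscle array.

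**Figure D1:**
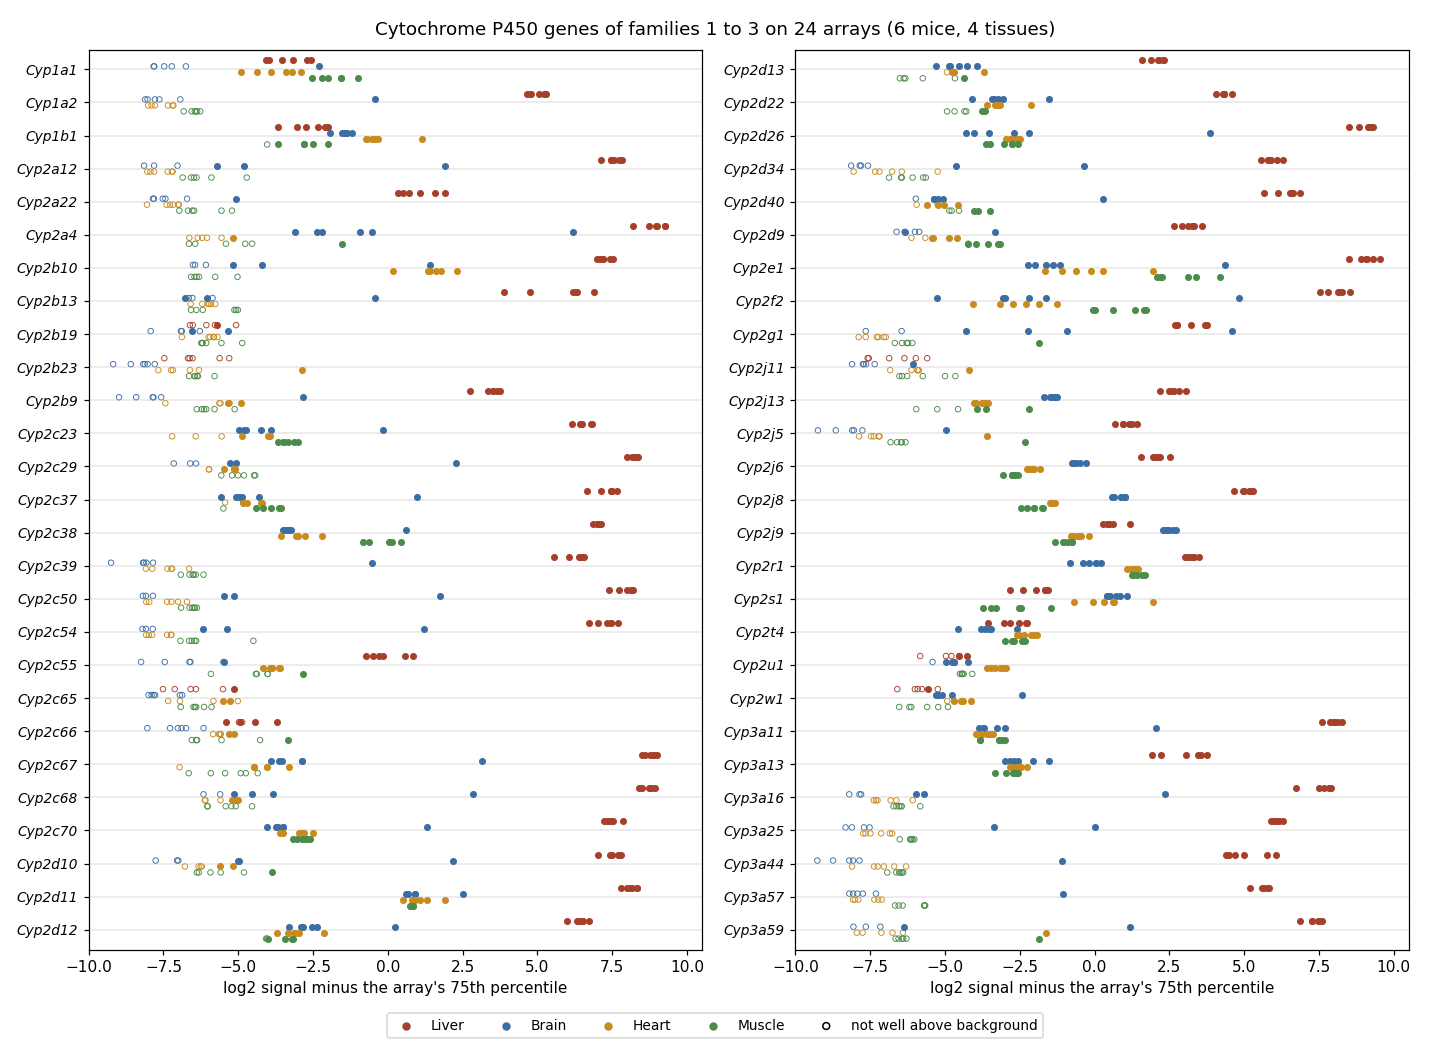
Level of each of the 54 members on each of the 24 arrays, as log2 signal minus the 75th percentile of the array (x axis), coloured by tissue and open where the probe was not well above background. For 43 of the 54 members the highest tissue mean is in liver, and in many of them a single blue point, the brain of KI mouse C, lies far to the right of the other 5 brains.

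The comparison of liver with each other tissue asked which members are higher or lower in liver. Of the 49 members detected on all 3 arrays of at least 1 group, 44 were higher in liver than in brain, beside 45.7% of all genes tested, and 4 were lower, beside 38.6% (limma, adjusted p under 0.05 over 17299 genes). The 4 were Cyp1b1, Cyp2j9, Cyp2s1 and Cyp2w1. Against heart 43 were higher and 4 lower (Cyp1b1, Cyp2s1, Cyp2u1 and Cyp2w1), beside 35.1% and 38.9% of all genes. Against muscle 43 were higher and 2 lower (Cyp1a1 and Cyp2u1), beside 35.3% and 43.9%. Members entered mostly through being detected in liver, so these counts describe them and are not a test of the set. The median log2 difference of the members was 9.80 against brain, 10.49 against heart and 9.87 against muscle, beside 0.19, -0.05 and -0.22 over all genes. All livers lay on slide 1, all muscles on slide 3 and the hearts on slides 2 and 3. Tissue and slide therefore cannot be told apart where liver is compared with heart or muscle. The brains lay on slides 1 and 2, with 2 of them beside the livers, so brain and muscle shared no slide either. In whole tissue, fewer cells of a type and less RNA per cell cannot be told apart either.

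For members not detected in the dimmer tissue only a bound on the fold could be given: the mean of the brighter tissue over its 6 arrays against the mean of, per array, the higher of the lowest signal well above background and the probe's own signal. Cyp1a2, the enzyme of caffeine clearance, stood at 4.79, 4.66 and 4.76 in KI livers and 5.05, 5.21 and 5.27 in WT livers. It was detected on no heart or muscle array, where it read from -8.01 to -6.27. Its level in liver was at least 1321-fold that in heart and at least 693-fold that in muscle. The largest such bound among members was that of Cyp2c50, a member of the Cyp2c cluster on chromosome 19 chosen after its values were seen, at least 10394-fold over heart. Cyp3a11, the main drug-oxidising Cyp3a enzyme of mouse liver, read 7.60 to 8.27 in liver. Its liver level exceeded the heart level by 11.60 (SE 0.63) and the muscle level by 11.34 (SE 0.63), with adjusted p = 3.09e-12 and 3.75e-12 by limma. Its 6 livers lay far above its hearts (-3.97 to -3.39) and muscles (-3.83 to -3.00).

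The members detected on all 24 arrays were also mostly liver genes. Cyp2d11 read 7.79 to 8.34 in liver and 0.49 to 2.51 in the other tissues, and Cyp2d26 read 8.49 to 9.30 in liver and at most -2.48 in heart and muscle. Cyp2c70, which hydroxylates bile acids in the mouse, read 7.23 to 7.86 in liver and at most -2.49 in heart and muscle. In these the livers formed a separate group. Cyp2c38 read 6.84 to 7.13 in liver and was higher in muscle (-0.84 to 0.44) than in heart (-3.57 to -2.20). Cyp2j6 was highest in liver (1.54 to 2.53), followed by brain (-0.75 to -0.28), heart (-2.25 to -1.81) and muscle (-3.05 to -2.55). Cyp2j8 had the same order of tissues, from 4.65 to 5.29 in liver down to -2.47 to -1.74 in muscle, without overlap between any of the 4 tissues. Cyp3a13, known from gut as well as liver, read 1.93 to 3.77 in liver and -3.32 to -1.54 elsewhere. For all 7 the liver exceeded each other tissue, by 2.64 (Cyp2j6 over brain) to 12.06 (Cyp2d26 over muscle).

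Outside liver the members that stood highest were few. Cyp1b1, which hydroxylates oestrogens and is known from tissues other than liver, was highest in heart, with -0.72, 1.16 and -0.33 in KI and -0.52, -0.44 and -0.70 in WT hearts. In liver it read -3.66 to -2.01, so that every heart lay above every liver. The liver minus heart difference was -2.38 (SE 0.35, 5.22-fold lower in liver, adjusted p = 4.79e-06 by limma), and its liver minus brain difference was -1.16 (SE 0.35, adjusted p = 0.00504). Liver and muscle did not differ beyond their spread in Cyp1b1 (0.33, SE 0.35, adjusted p = 0.392).

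Cyp2j9 was highest in brain, at 2.28 to 2.73 on all 6 arrays, while all livers lay between 0.29 and 1.19. Brain exceeded liver by 3.72-fold (log2 difference 1.90, SE 0.13, adjusted p = 1.02e-10 by limma), heart by 8.18-fold and muscle by 11-fold. The brain of KI mouse C, at 2.37, did not stand apart in this gene. The order of tissue means was brain, liver, heart, muscle, and each neighbour differed (heart minus muscle 0.43, SE 0.13, adjusted p = 0.0095 by limma).

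Cyp2s1, an epithelial member that AHR ligands induce, was high in brain (0.41 to 1.07) and heart (-0.67 to 1.96) and lower in liver (-2.82 to -1.55) and muscle (-3.73 to -1.47). Brain and heart did not differ beyond their spread (0.20, SE 0.39, adjusted p = 0.644 by limma), and neither did liver and muscle (0.81, SE 0.39, adjusted p = 0.0619). Liver lay 6.38-fold below brain and 5.56-fold below heart. Cyp2u1, a hydroxylase of long-chain fatty acids, was detected on all hearts, on 2 of 6 livers and on no muscle array. Its hearts read -3.60 to -2.97 and all its livers lay lower, from -5.83 to -4.27, a liver minus heart difference of -1.55 (SE 0.19, adjusted p = 4.33e-07 by limma). Cyp2w1, named for its calls, was detected on 1 liver and lay within -5.29 to -4.75 in 5 brains, with the brain of WT mouse D at -2.44.

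Cyp1a1, the AHR target oxidising polycyclic aromatic compounds, read highest in muscle. KI muscles read -0.99, -1.99 and -1.58 and WT muscles -2.22, -1.56 and -2.55. KI livers read -2.70, -3.97 and -2.57 and WT livers -4.08, -3.15 and -3.53. The lowest muscle just cleared the highest liver, and the liver minus muscle difference was -1.52 (SE 0.63, adjusted p = 0.0333 by limma). The difference lost its call without any of mice A, B, D, E or F (adjusted p from 0.053 to 0.111). It kept the call without mouse C (adjusted p = 0.000944). That SE came from a fit of the arrays of all tissues, brains included. The brain of KI mouse C read -2.32 in Cyp1a1, against -7.83 to -6.75 in the other brains. Without that array the SE of the liver minus brain difference in Cyp1a1 was 0.36. Leaving out mouse C also removed that brain. These runs therefore do not show how far the call rests on the livers and muscles of single mice. Cyp1a1 was detected on no brain array but that of KI mouse C. Cyp2t4, a member of unknown substrate, was highest in heart (-2.61 to -1.91), but heart and liver did not differ beyond their spread (liver minus heart -0.49, SE 0.23, adjusted p = 0.0563 by limma, and 0.0417 without mouse A). The call of Cyp2u1 as lower in liver than in muscle (-0.44, adjusted p = 0.0401) rested on levels not well above background in any muscle and was lost without any 1 of the 6 mice (adjusted p from 0.0514 to 0.136).

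**Figure D2:**
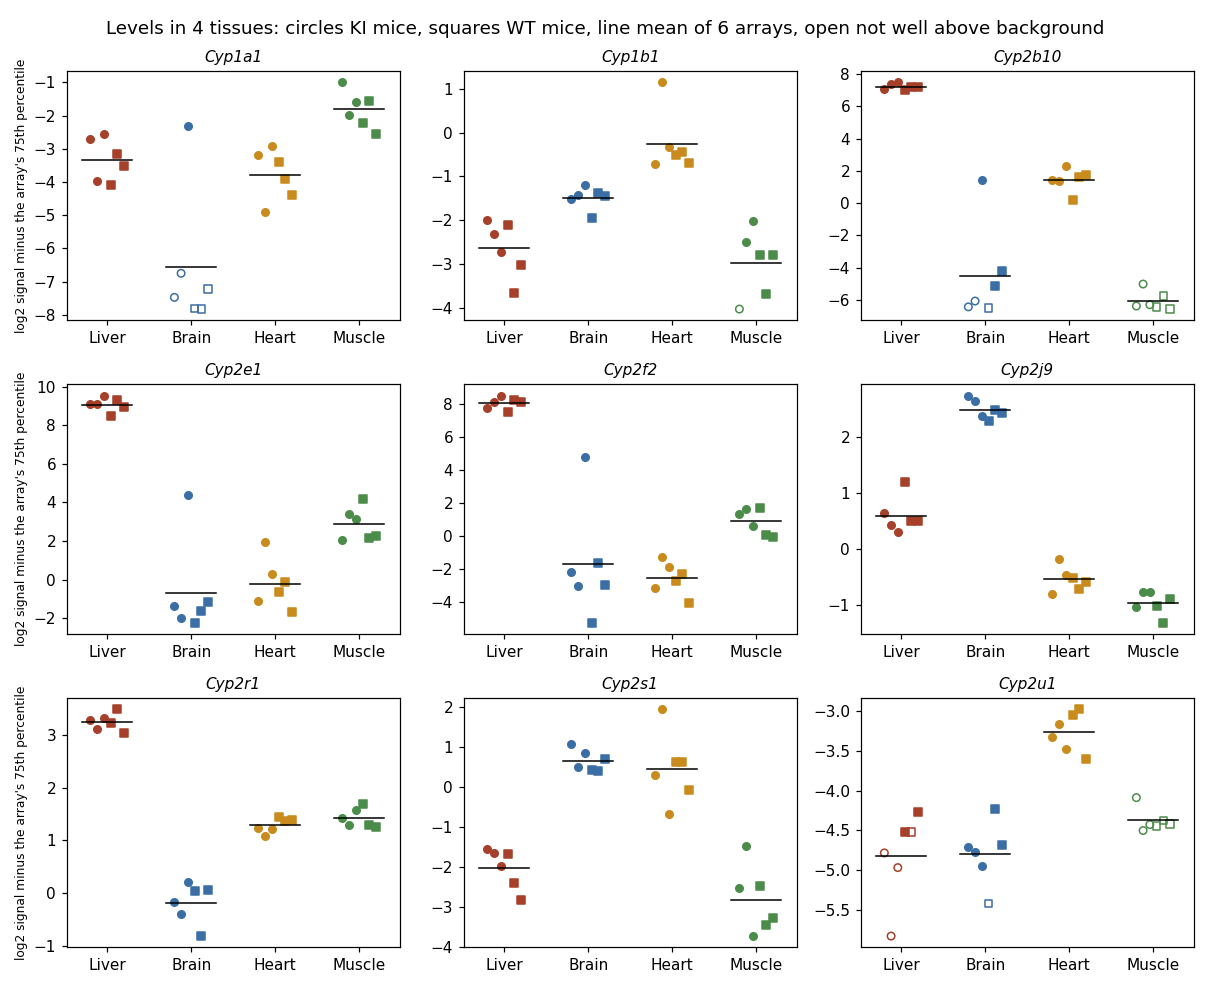
Level of 9 members in each tissue (y axes, log2 signal minus the 75th percentile of the array, each panel with its own range), with circles for KI mice, squares for WT mice, a line at the mean of 6 arrays and open symbols where the probe was not well above background. Cyp2b10 lies between 0.17 and 2.30 on the hearts and is detected on no muscle, whereas Cyp2e1 and Cyp2f2 lie higher in muscle than in heart; single high brain points are the brain of KI mouse C.

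Brain, heart and muscle were then compared with each other. Of 49 members, 8 were higher and 8 lower in brain than in heart, where 79.3% of all genes differed in either direction. Between brain and muscle it was 13 higher in brain and 10 lower, beside 82.1%, and between heart and muscle 10 higher in heart and 7 lower, beside 64.7% (limma, adjusted p under 0.05). Many members were below background in both tissues of such a pair, where a difference says nothing of their level. Counting only those detected on all arrays of the higher tissue left 7 and 7 for brain and heart, 12 and 6 for brain and muscle, and 8 and 5 for heart and muscle. Without the brain of KI mouse C these counts were 5 and 9 for brain and heart and 12 and 8 for brain and muscle. The comparison of liver with brain still gave 44 higher and 4 lower without it.

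Cyp2b10, the classical CAR target, was described further after its values were seen. It read 1.36 to 2.30 in KI hearts and 0.17 to 1.77 in WT hearts, was detected on no muscle array, and read 7.0 to 7.51 in liver. Heart was 55.6-fold below liver (adjusted p = 1.24e-05 by limma) and at least 60.3-fold above muscle. Its relatives Cyp2b9 and Cyp2b13 were detected on 2 and on 0 of 6 hearts. Of 8 lung club cell markers, which lung tissue left on a heart would bring, 3 were detected on all KI hearts and 2 on all WT hearts. Their summed level was -1.62 to -0.92 in heart, and Scgb1a1, the defining marker, read -5.97 to -3.53 there and -5.45 to -4.91 in liver. Scgb3a1, another of these markers, read -2.54 to -2.13 in heart, above all livers (-4.25 to -3.77). The part of lung tissue in the heart level of Cyp2b10 was not tested.

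Cyp2e1, the ethanol-oxidising enzyme, and Cyp2f2, which bioactivates naphthalene in lung and is also made in liver, were both higher in muscle than in heart. Cyp2e1 read 2.07, 3.38 and 3.14 in KI muscles and 4.18, 2.19 and 2.25 in WT muscles, and all 6 lay above the hearts (-1.67 to 1.95). The heart minus muscle difference was -3.08 (SE 0.80, adjusted p = 0.00262 by limma). Cyp2f2 read -0.06 to 1.72 in muscle and -4.08 to -1.26 in heart, with no overlap and a heart minus muscle difference of -3.45 (SE 0.97, adjusted p = 0.00441 by limma). The summed adipose markers were 8.06 to 9.24 in muscle and 7.66 to 8.17 in heart, and Adipoq, which adipocytes make, read 2.48 to 4.65 in muscle and -2.94 to 1.38 in heart, with 9 of the 10 markers detected on all muscles and 8 on all hearts. Plin1, Plin4, Cidec, Lep, Cfd and Retn likewise read higher in every muscle than in every heart. Cidea went the other way (4.27 to 5.10 in heart, -1.71 to 4.19 in muscle), and Fabp4 and Ucp1 overlapped between the tissues. The part of fat tissue in these levels was not tested. Cyp2r1, the vitamin D 25-hydroxylase, read 1.25 to 1.69 in muscle, 1.08 to 1.45 in heart and 3.03 to 3.49 in liver, and muscle and heart did not differ beyond their spread (adjusted p = 0.434 by limma).

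Whether the mutation moved these genes was asked in each tissue. In liver no member passed an adjusted p of 0.05, and 0% of all 14092 genes tested did. The smallest adjusted p of a member was 0.376. At an unadjusted p under 0.05 there were 5 of 47 members (10.6%), beside 11.7% of all genes. Their number ran from 1 (without the liver of KI mouse A) to 10 (without that of KI mouse C). The genotypes did not overlap in 8 members (17.0%), beside 19.7% of all genes. The members' share was thus near the background. By direction, 23 of the 47 members read higher and 24 lower in KI liver, and their median difference was -0.01 beside 0.04 over all genes, with a range from -1.57 for Cyp2b13 to 0.88 for Cyp3a44.

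**Figure D3:**
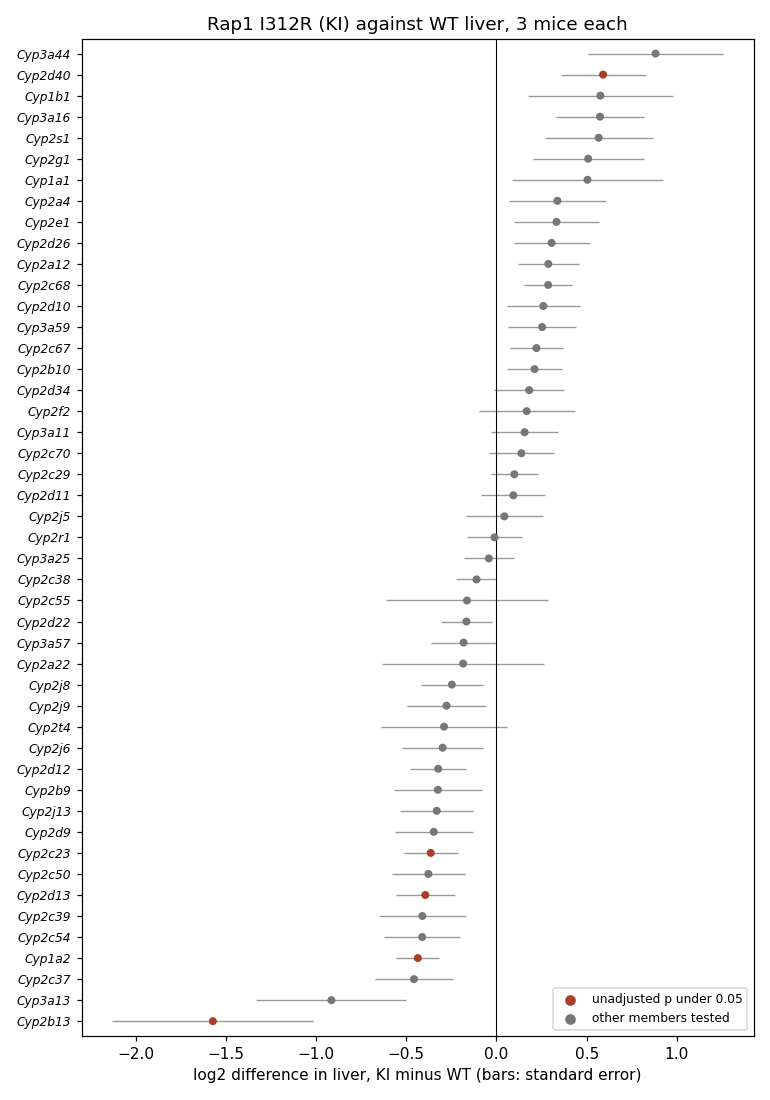
KI minus WT log2 difference in liver (x axis) with its standard error from limma for each of the 47 members tested, ordered by size, in red where the unadjusted p was under 0.05. The values run from -1.57 to 0.88 with 23 above 0 and 24 below it, and no member passes after adjustment.

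Cyp1a2 had the smallest p of the members in liver. All KI livers (4.66 to 4.79) lay below all WT livers (5.05 to 5.27), 4.74 ± 0.07 against 5.18 ± 0.11 (SD, n = 3 each). The difference was -0.44 (SE 0.12, unadjusted p = 0.00906, adjusted p = 0.376 by limma), a level 1.35-fold higher in WT. It stayed at an unadjusted p under 0.05 without any 1 of the 6 livers, with differences from -0.50 to -0.39. Its neighbour Cyp1a1 overlapped between genotypes (0.50, SE 0.42, adjusted p = 0.609), and so did Cyp1b1 (0.58, SE 0.40, adjusted p = 0.552).

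Cyp2b13, which together with Cyp2b9 is known as a female-predominant gene of mouse liver, had the largest difference of any member. The KI livers read 3.88 (A), 4.74 (B) and 6.19 (C) and the WT livers 6.30, 6.33 and 6.88. The groups did not overlap, yet the liver of KI mouse C lay nearer to the WT livers than to those of A and B. The difference of -1.57 (SE 0.56, unadjusted p = 0.0273, adjusted p = 0.402 by limma) ranged from -2.20 without C to -1.04 without A. Cyp2b9, whose promoter differs from that of Cyp2b13 by 2 of 250 bases, overlapped between genotypes with a difference of -0.32 (SE 0.24, adjusted p = 0.573), and Cyp2b10 with 0.21 (SE 0.15, adjusted p = 0.561). Between such close relatives a probe may read more than its own gene, which was not tested.

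The other members under an unadjusted p of 0.05 were Cyp2d40, Cyp2c23 and Cyp2d13. Cyp2d40, of the Cyp2d cluster on chromosome 15, read 6.85, 6.61 and 6.62 in KI and 5.65, 6.55 and 6.12 in WT liver. It was the only 1 of the 5 that was higher in KI (0.59, SE 0.24, adjusted p = 0.421 by limma). Cyp2c23, an arachidonic acid epoxygenase, read 6.15 to 6.44 in KI and 6.51 to 6.81 in WT liver (-0.36, SE 0.15, adjusted p = 0.422). Cyp2d13 read 1.58 to 2.11 in KI and 2.16 to 2.32 in WT liver (-0.39, SE 0.16, adjusted p = 0.422). In each of the 3 the nearest KI and WT livers all but touched, as with 6.61 and 6.55 in Cyp2d40. Without 1 liver the difference ran from 0.36 to 0.81 in Cyp2d40, from -0.46 to -0.27 in Cyp2c23 and from -0.52 to -0.26 in Cyp2d13. An unadjusted p under 0.05 was left only without WT mouse E in the former pair and only without KI mouse C in Cyp2d13.

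**Figure D4:**
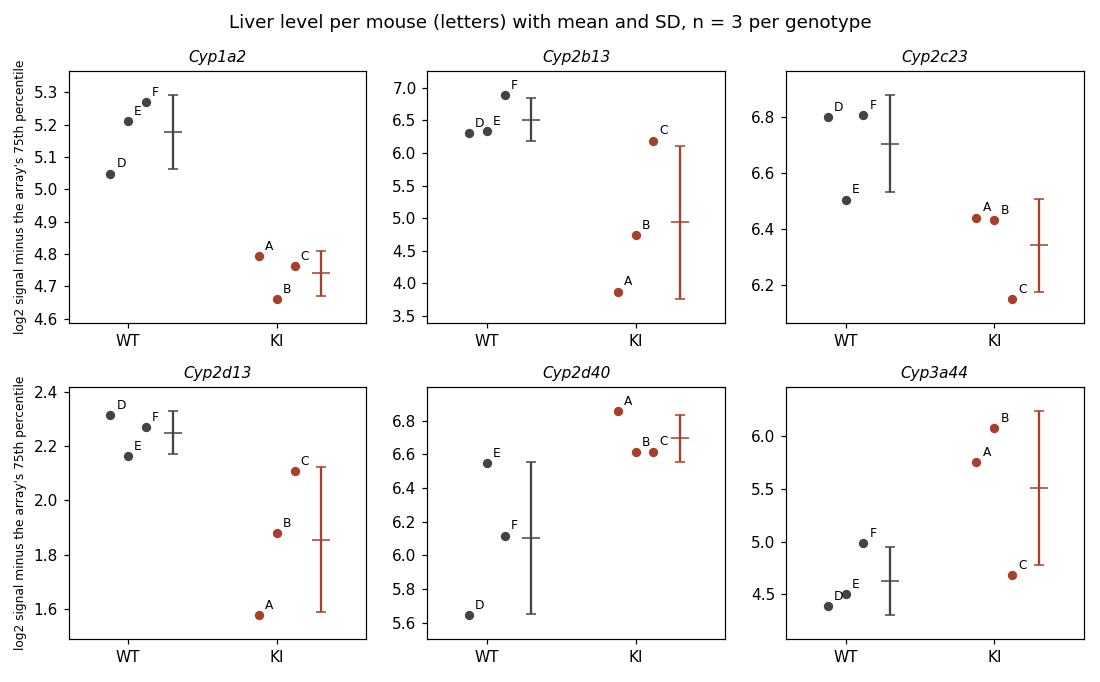
Level in the liver of each mouse (letters A to C for KI, D to F for WT) for 6 members (y axes, log2 signal minus the 75th percentile, each panel with its own range), with the mean and SD of 3 mice. In Cyp2b13 the KI mice spread from 3.88 to 6.19 while the WT mice lie between 6.30 and 6.88, and in Cyp1a2 all KI mice lie at or below 4.79.

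A further 3 members did not overlap without reaching that p. Cyp3a16 and Cyp2c68 lay higher in all KI livers (0.57 and 0.29) and Cyp2d12 lower (-0.32), with adjusted p of 0.434, 0.448 and 0.456 by limma. These and the members in the next sentences were named after their values were seen. Cyp3a44, known as female-specific in mouse liver, read 5.76 (A), 6.08 (B) and 4.68 (C) in KI and 4.39 to 4.99 in WT liver, so the liver of C lay among the WT livers. In Cyp2c37, Cyp2c39, Cyp2c50 and Cyp2c54 the livers of KI mice A and B were the lowest of the 6 and that of C lay within the WT range, whereas in Cyp2b13 it lay just below it. Without the liver of C, 10 members had an unadjusted p under 0.05, Cyp2b13 at -2.20, Cyp3a44 at 1.29 and these Cyp2c members at -0.65 to -0.56 among them, and none passed after adjustment (adjusted p = 0.527 for each of them). The liver of C is also the one with skeletal muscle signal, and it came from the youngest KI mouse. Their part in these levels was not tested.

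The widely detected and much studied members had small differences in liver. Cyp2e1 differed by 0.33 (SE 0.24), Cyp2f2 by 0.17 (SE 0.27), Cyp3a11 by 0.16 (SE 0.18) and Cyp2r1 by -0.01 (SE 0.15), all with overlapping genotypes and adjusted p from 0.56 to 0.979 by limma. The other probe of Cyp2e1 gave -0.18 (SE 0.19). Cyp3a13 read lower in KI at -0.91 (SE 0.42, adjusted p = 0.443), but by its other probe at -0.26. Markers of liver macrophages and immune cells, summed, were 6.65 to 6.75 in KI and 5.83 to 6.22 in WT livers, without overlap, with 9 of the 10 detected in all of them. Singly, Cd5l, Clec4f, Vsig4, Adgre1, Cd68 and Ly6d were higher in every KI liver. Marco and the immune cell markers Ptprc, Cd3e and Cd79a overlapped between genotypes. Their part in the levels of the members was not tested.

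The genes that serve or control these enzymes gave no adjusted call in liver either. Among 18 partner proteins (electron donors and heme synthesis), 2 read higher and 1 lower at an unadjusted p under 0.05, and their median difference was 0.01 beside 0.04 over all genes. Alad, of heme synthesis, was lower in KI (-0.32), whereas Uros, of a later step, read 0.32 higher and Pgrmc2, a heme-binding protein of the endoplasmic reticulum, 0.44 higher, with adjusted p of 0.402, 0.402 and 0.422 by limma. Por overlapped (-0.11, adjusted p = 0.80), as did Alas1, the rate-limiting heme enzyme (-0.41, adjusted p = 0.612). Of 27 regulators tested 1 was higher and 3 were lower at that p (median -0.04). Over all genes 7.48% were higher and 4.25% lower at that p. Bcl6, a repressor in growth hormone signalling, read 1.15, 1.44 and 1.74 in KI and 2.58, 3.13 and 2.49 in WT liver, a difference of -1.29 (SE 0.23, adjusted p = 0.358 by limma). Nr1i2, the receptor PXR, and Cebpa also read lower (-0.47 and -0.38, adjusted p = 0.402 and 0.41). Nr1i2 did not overlap, with 2.25 to 2.70 in KI and 2.79 to 3.02 in WT liver.

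Other targets of these receptors and the zonal and sex-biased genes of hepatocytes were counted the same way, at an unadjusted p under 0.05 in liver. Among 7 other AHR targets 0 were higher and 1, Gsta2 (-0.67), lower, and among 19 targets of CAR and PXR 2 were higher and 1 lower, with Slco1a4 at -0.75 and Sult1e1 at 2.49. Of 21 pericentral genes, those of the zone in which Cyp1a2 and Cyp2e1 are made, 0 were higher and 1, Rnase4 (-0.82), lower at that p. Of 21 periportal genes 0 were higher and 2 lower, Cps1 (-0.68) and Igfbp2 (-0.64). Of 16 female-biased genes 3 were higher and 1 lower, with Hao2 at 0.61 and Slc22a27 at 0.45, and of 11 male-biased genes 1 was higher (C6, 0.52) and 1 lower (Slco1a1, -1.26). The list medians in liver lay between -0.08 and 0.11. For the list genes given above with their liver difference, the adjusted p lay between 0.358 and 0.405 by limma. Sult2a1 stands in 2 of these lists. Outside liver these lists gave 3 genes at that p, of which 1 was higher in KI heart. The lower ones were Cebpb in heart (-0.49) and Ugt1a6a in muscle (-1.24), the last not detected on any KI muscle.

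In the other tissues fewer members could be tested between genotypes (27 for brain, 26 for heart, 19 for muscle), and 0 passed an adjusted p of 0.05, as did 0% of all genes in each of these tissues. In brain 1 member reached an unadjusted p under 0.05, beside 0.79% of all genes, and 3 did not overlap, beside 2.86%. In heart it was 0 beside 1.64% and 3 beside 5.04%, and in muscle 0 beside 0.851% and 0 beside 3.54%. The brain member was Cyp2t4, at -3.80, -4.57 and -3.66 in KI and -2.61, -3.46 and -3.53 in WT brains, with all KI brains lower (-0.82, SE 0.33, unadjusted p = 0.0452, adjusted p = 1.0 by limma). Its difference was -1.20 on slide 1 and -0.62 on slide 2, and its unadjusted p was over 0.05 without any of mice A, B, D or E. The other members without overlap, named for that, were Cyp2d22 and Cyp2j13 in brain (1.03 and 0.22, and 0.49 and 0.19 without the brain of KI mouse C) and Cyp2d12, Cyp2d13 and Cyp2r1 in heart (0.64, 0.44 and -0.22, and 0.34, 0.11 and -0.18 without the heart of KI mouse B). By another of its probes, detected on 5 of the brains, Cyp2j13 read lower in KI brain (-0.39). The closest in muscle was Cyp3a11 at -0.51 (unadjusted p = 0.0504 by limma).

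Over the brain members the median KI minus WT difference was 1.03 with 24 of 27 above 0, beside -0.03 over all genes. Without the brain of KI mouse C it was 0.08 with 16 of 27 above 0. Then 2 members had an unadjusted p under 0.05, Cyp2t4 (-0.99) and Cyp2c67 (-0.68), the last named for that count.

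Averaging each mouse over its 4 tissues, 0 of 49 members passed an adjusted p of 0.05, as did 0% of all genes. At an unadjusted p under 0.05 there were 0 members beside 3.47% of all genes. The smallest p were those of Cyp2d11 (0.31, SE 0.14), Cyp2f2 (1.23, SE 0.55) and Cyp3a44 (1.05, SE 0.48), each with adjusted p = 0.983 by limma. Without 1 mouse they ran from 0.21 to 0.42, from 0.61 to 1.65 and from 0.47 to 1.35. The mean of KI mouse C was the highest of the 6 in Cyp2f2 (3.02 against 0.26 to 1.37) and in Cyp3a44 (-2.27 against -4.66 to -3.99), and without C the differences were 0.61 and 0.47. Outside liver Cyp3a44 was detected only in the brain of C, so its mean over tissues mostly holds levels not well above background. In the test of a genotype effect that differs between tissues 0 members passed after adjustment, beside 0% of all genes, and 1 member at an unadjusted p under 0.05, beside 1.86%. That was Cyp3a25 (F = 4.15, unadjusted p = 0.021, adjusted p = 1.0 by limma), followed by Cyp3a13 and Cyp2b13 (unadjusted p = 0.114 and 0.12). Leaving out a mouse moved the F of Cyp3a25 between 2.32 and 24.4. In Cyp3a25 the livers lay between 5.90 and 6.29, and the brains of KI mice C and A read 0.01 and -3.35 against -8.33 to -7.52 in WT brains. The brain of KI mouse B, at -7.71, lay within the WT brains and was not well above background.

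The brain of KI mouse C carried signal of nearly all members. There 45 of the 54 members read above all other 5 brains, and 50 were detected. Of 12 members detected on none of the other brains, 9 were detected there. Cyp1a2 read -0.44 in this brain and -8.12 to -6.94 in the others, Cyp2c29, chosen after its values were seen, read 2.28 against at most -5.06, and Cyp3a11 read 2.06 against at most -3.00. The shift ran through the Cyp2a, Cyp2b, Cyp2c, Cyp2d and Cyp3a subfamilies. In the Cyp2j subfamily Cyp2j5 read 2.80 above the highest other brain, but Cyp2j6 only 0.22 and Cyp2j13 only 0.05. The 9 members that did not read above the other brains included Cyp2j8, Cyp2j9, Cyp2s1 and Cyp2t4, detected on all brains.

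For 43 members detected on all livers and raised in this brain, the level there was set against the level in the liver of the same mouse. The median was 1.61%, with quartiles of 1.25% and 2.75%. Some members, named after their values were seen, stood far from it. Cyp2g1, a P450 known from olfactory mucosa, read 4.60 in this brain and 2.74 in the liver of C, which is 363%, and Cyp2a4, whose close relative is abundant in the same mucosa, stood at 14.8%. Cyp1a1 stood at 119% and Cyp2f2 at 7.65%. The members Cyp1b1, Cyp2j6, Cyp2j13, Cyp2r1 and Cyp3a13, which the other brains also expressed, lay between 6.64% and 291%. Alb, the liver's main secreted protein, read 6.53 in this brain and -7.11 to -0.82 in the others, Apoa1 read 0.88 against at most -7.01, and Omp, of olfactory neurons, read 5.64 against -2.93 to 2.25. Of the other olfactory markers, Stoml3, Cnga2, Cnga4, Adcy3 and Ano2 were also highest in this brain. Gng13 (5.08 against 5.10 to 5.47) and Obp1a (-1.72 against -1.71 to -0.99) were lowest there, and Obp2a lay within the other brains. The part of liver or olfactory RNA in the levels of the members was not tested. Cyp2g1 was also read in the muscle of WT mouse E at -1.85 and in no other muscle, and there the summed olfactory markers were 0.84 against -0.34 to -0.03 in the other muscles.

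**Figure D5:**
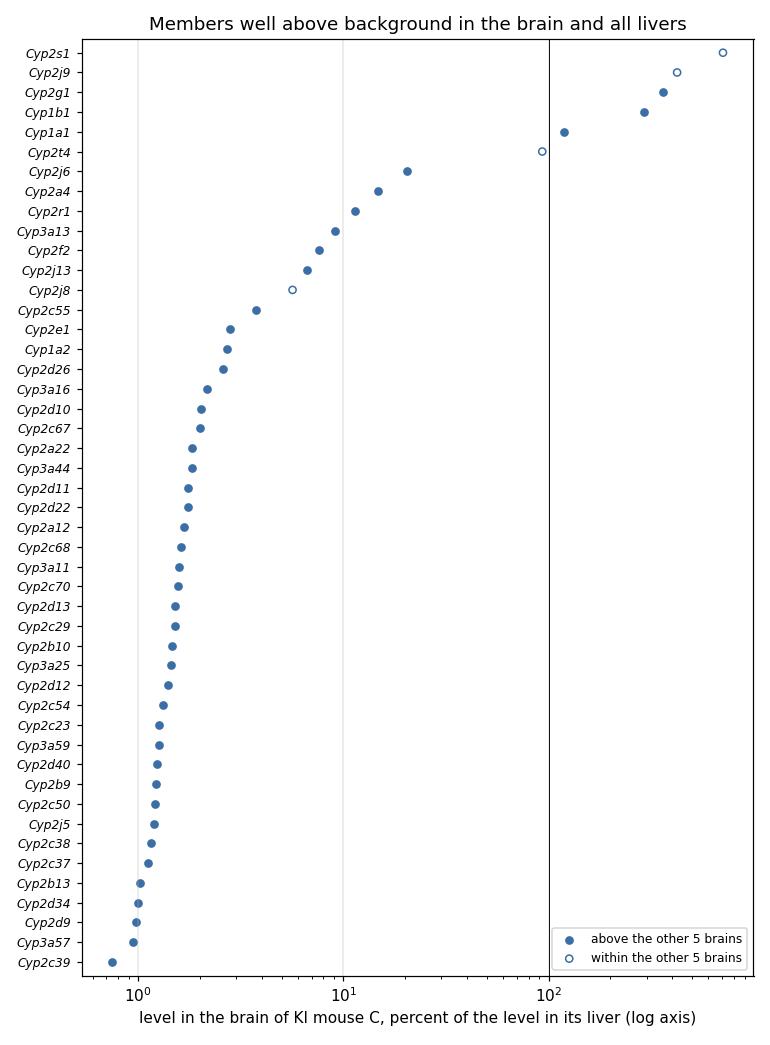
Level in the brain of KI mouse C as percent of the level in the liver of the same mouse (x axis, log scale) for the members detected there and on all livers, ordered by size. Filled points are the 43 members above the other 5 brains, with a median of 1.61% and the highest, Cyp2g1, at 363%, and open points are members within the range of the other brains.

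Without this brain the distance between liver and brain grew for the members. Their median liver minus brain difference was 9.80 with it and 11.04 without it, while that of all genes was 0.19 and 0.18. Cyp1a2 was then detected on none of the 5 brains, with a liver level at least 2447-fold higher, and the same bound was at least 6000-fold for Cyp2c39 and at least 3949-fold for Cyp3a57, both named after their values were seen. Brain-expressed members changed little: Cyp2j9 moved from -1.90 to -1.95 and Cyp2s1 from -2.67 to -2.66.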

How the data were processed

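Cy3-labelled RNA of 24 samples (3 mice per genotype in each of 4 tissues) was hybridised to 1-colour Agilent mouse arrays, and the authors deposited the scanner output of Feature Extraction. The deposited processed signal is an intensity corrected for background within each array and not scaled between arrays, and the flags that mark probes well above background came from the same software. A deposited table of the authors holds a score per probe that is linear in the log2 signal within each array, with direction kept, and served as an alternative. Here log2 processed signals were set relative to the 75th percentile of their array, outlier spots and control spots were left out, and spots of a probe were averaged. Of 55681 probes 28341 were named through RefSeq accessions or symbols, and a gene was read from its brightest probe, by the mean of 24 arrays. Between 49.4% and 68.4% of probes per array were well above background and 0 spots were saturated. Precision is limited by the number of mice.

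Genotypes were compared per tissue with limma 3.58.1 (R 4.3.3), over genes well above background on all 3 arrays of a genotype. Tissues were compared in a fit of all 24 arrays with 8 group means, and Benjamini-Hochberg adjustment ran over all genes tested, with a threshold of 0.05. With 3 against 3 an exact permutation test cannot go below p = 0.1. Each mouse gave all 4 tissues, so the mouse number pairs tissues and not genotypes, and the consensus correlation of a mouse's arrays was -0.00135. Alternatives were quantile normalization, normexp (offset 50), other filters and probes, a pooled fit, the mouse as a block, array weights, the slide as a block and leaving out each array or mouse. Calculations were tested on simulated data. Named are members at adjusted p under 0.05 or, failing 5 of them, those at unadjusted p under 0.05 whose genotypes did not overlap, members highest outside liver, members on all 24 arrays, the smallest 3 p of the mean and of the interaction, and 7 members always given. The members and lists were chosen with earlier results of these data known. Results for some genes of the lists are not reported here. Probe sequences were not used here, so reading of close relatives by a probe was not checked.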

Additional observations from a re-analysis of the deposited data

Results flagged for a closer look

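In 2 members of the Cyp2d cluster the genotype differences had opposite signs in heart and liver, with every KI heart above every WT heart and every KI liver below every WT liver. For Cyp2d12 the KI minus WT difference in heart exceeded that in liver by 0.96 (SE 0.77), and for Cyp2d13 by 0.83 (SE 0.58). Tested directly, neither contrast passed (adjusted p = 0.871 and 0.868 by limma). The heart side rested largely on the heart of KI mouse B: without it, an omission chosen after seeing the data, the heart difference went from 0.64 to 0.34 in Cyp2d12 and from 0.44 to 0.11 in Cyp2d13. KI hearts read -2.97, -2.14 and -3.12 in Cyp2d12 and WT hearts -3.12, -3.33 and -3.69, and its difference in heart was 0.67 on slide 2 and 0.57 on slide 3.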

How the results depend on the processing

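No member passed an adjusted p of 0.05 between genotypes under any setting run in any tissue, in the mean of 4 tissues or in the interaction, so only the counts at an unadjusted p under 0.05 moved. In liver the 5 members became 8 with quantile normalization, 3 without a filter, 8 with the mean over all probes, and 1 in the pooled fit of 24 arrays. The members changed as well as their number. In the pooled fit the 1 was Cyp3a13 (-0.91), and none of the 5, Cyp1a2 included, was under that p. Leaving out an array gave 1 to 10. In brain the count of 1 became 0 with normexp or without a filter, 6 in the pooled fit, 3 with array weights, 2 with the slide as a block, and 0 to 3 without an array. In heart 0 became 1 with quantile normalization, 1 with the deposited table, 1 with array weights, 2 with the slide as a block, and 0 to 2 without an array. In muscle 0 became 1 with quantile normalization, 1 with the filter on all 6 arrays, 1 with array weights, and 1 without any 1 array. With a replicate block for the mouse, the pooled fit gave 1 in liver and 6 in brain, as in the pooled fit without the block. The cause of these changes was not tested.

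The 2 members lower in liver than in muscle became 1 with quantile normalization, 1 with WT mice alone and 0 to 1 without a mouse. The other counts of members higher or lower in liver stayed within 1.5 times under the settings run. Directions turned in liver for members near 0: Cyp2e1 to -0.18 by its other probe, Cyp2f2 to -0.0103 with quantile normalization, with a range of -0.0604 to 0.348 without an array, and Cyp2r1 to 0.000543 with normexp, 0.039 with the mean over probes and 0.0892 by its other probe, with a range of -0.121 to 0.109 without an array. Signal over background limits what can be said of members undetected outside liver.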
